A study of Mus musculus with 92 samples.

Results

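The genes described here encode splicing factors of 4 families, the SR proteins (symbols starting with Srsf), the hnRNP proteins (Hnrnp), the SF3a and SF3b subunits (Sf3a, Sf3b) and the small nuclear ribonucleoprotein proteins (Snrp). A row was taken as a member when its symbol started with one of these stems, or with the older Sfrs or Hnrp, and it was detected, with a value above 0, in 25% or more of the cells of either sort gate. The symbols found 52 rows of the 23956 in the table, and 50 passed that limit: 10 of 11 SR genes, all 20 hnRNP genes, all 9 SF3 genes and 11 of 12 Snrp genes. Srsf12 and Snrpn, the rows that did not pass, were listed at 0 in every cell. The member with the lowest detection was Sf3a2, in 55.6% of the cells of GMP and 27.7% of those of CD11b+ GMP-P, so no member lay close to the limit.

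Introns are removed by the spliceosome, which assembles on each transcript from small nuclear RNAs and their proteins. A ring of Sm proteins, encoded by Snrp genes, forms on most of these RNAs, and the SF3a and SF3b complexes belong to the U2 particle, which recognises the branch point. SR proteins bind exons and mostly favour their inclusion, while hnRNP proteins bind many sites and often oppose it. Splicing factors are of interest in marrow because SF3B1 and SRSF2 are recurrently mutated in human myelodysplastic syndromes, and because late neutrophil precursors are known to retain introns.

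All cells came from the bone marrow of C57BL/6 mice with both copies of Gfi1 carrying the R412X allele, a premature stop in a repressor needed for granulocyte development. Marrow from crushed hind limb bones was enriched for CD117 on beads and sorted by flow cytometry, and single cells were captured and lysed on a Fluidigm C1 chip before cDNA synthesis and 150 bp paired-end sequencing. The GMP gate (granulocyte-monocyte progenitors in common usage) gave 45 cells. The CD11b+ GMP-P gate gave 47, and CD11b is the product of Itgam. Both gates carry the mutation and 0 wild type cells were analysed, so no value below is an effect of the allele. Ages, sexes and the number of animals behind a gate are not given in the labels, and each gate has 1 date code.

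Each gate is therefore 1 sample: gate, animal, chip and date cannot be told apart, and with 1 sample a gate the values are described without tests or p-values. Values are log2(TPM + 1), in which TPM is a transcript's abundance corrected for its length and scaled to the same total in every cell, and ± is the SD over cells, not an error between animals. A difference of at least 1 on the log2 scale is used as a rule of size. Read depth per cell is unknown, because TPM does not hold it; genes detected per cell are given in its place.

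The labels were checked against marker genes. Mean Itgam was 0.97 ± 2.04 in GMP and 4.41 ± 3.05 in CD11b+ GMP-P. For Cd34, a progenitor surface marker, the means were 6.87 ± 3.18 and 1.55 ± 2.90. Kit, whose product is CD117, had means of 2.13 ± 2.24 and 1.96 ± 2.69. Elane and Mpo, which encode proteins of the primary granule, were above 0 in every cell of both gates. Their mean log2 values were lower in CD11b+ GMP-P. Elane had means of 13.65 ± 2.70 and 10.78 ± 5.80, and Mpo of 13.86 ± 1.67 and 9.68 ± 5.77. By mean TPM the gates were closer for Elane, at 21657 and 21183, than for Mpo, at 18682 and 12139. Their lowest CD11b+ GMP-P cells were at 1.64 and 0.7 TPM. The summed median of the erythroid and megakaryocyte list was 0 TPM in both gates. The B cell list had summed medians of 1.72 and 0 TPM and a highest cell at 1039 TPM, with Cd79a and Pax5 at 0 in every cell. The T and NK cell list had summed medians of 3409 and 2721 TPM, with 4 of its 6 measured genes, Cd3e and Cd3g among them, at 0 in every cell. The basophil and mast cell list had summed medians of 660 and 380 TPM, with a highest cell at 13379 TPM in GMP and 1771 TPM in CD11b+ GMP-P. The monocyte list had summed medians of 7909 and 4271 TPM, and the stem and multipotent progenitor list of 447 and 5 TPM. The part of these other cell types in the results was not tested. The median number of genes detected was 5611 per GMP cell and 4143 per CD11b+ GMP-P cell, and a list of neutrophil granule genes took a median of 5.95% and 26.7% of all TPM. The authors named 9 cell states, of which Myelo-1, Myelo-2 and Myelo-4 were found in CD11b+ GMP-P and not in GMP.

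Promoter windows are shown first for the members on which the contrasts below turn, to set the sequence of strongly and weakly differing genes side by side. Hnrnpa1 had the largest gate difference of all members and Hnrnpl was found in every cell, Sf3a3 and Sf3b6 stand for the SF3 family, and Snrpg had the highest level of the Snrp family. Each is the run of 250 bases before the annotated start, 5′ to 3′, from RefSeq on GRCm38.p6. The deposited values were made on mm9, so no position was carried between builds. Capitals mark CCAAT boxes (CCAAT or ATTGG) and the ETS core (CCGGAAG or CTTCCGG), which were searched on both strands and do not overlap.
The windows lie at chr15:103240147-103240396 (Hnrnpa1, 4 CCAAT boxes), chr7:28810640-28810889 (Hnrnpl, 4 CCAAT boxes), chr4:124714611-124714860 (Sf3a3, 1 ETS core), chr12:4817358-4817607 (Sf3b6, 2 ETS cores) and chr6:86371290-86371539 (Snrpg, 1 of each), all on the plus strand.
Hnrnpa1: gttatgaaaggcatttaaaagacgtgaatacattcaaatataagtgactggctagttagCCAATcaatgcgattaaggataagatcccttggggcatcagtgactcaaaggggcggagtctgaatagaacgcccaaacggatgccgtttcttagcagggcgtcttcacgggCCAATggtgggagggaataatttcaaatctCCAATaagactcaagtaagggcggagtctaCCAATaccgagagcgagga
Hnrnpl: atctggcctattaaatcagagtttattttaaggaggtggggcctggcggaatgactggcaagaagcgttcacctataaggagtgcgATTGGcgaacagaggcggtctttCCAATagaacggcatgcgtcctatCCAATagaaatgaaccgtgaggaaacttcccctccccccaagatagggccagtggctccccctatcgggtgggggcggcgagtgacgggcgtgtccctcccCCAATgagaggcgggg
Sf3a3: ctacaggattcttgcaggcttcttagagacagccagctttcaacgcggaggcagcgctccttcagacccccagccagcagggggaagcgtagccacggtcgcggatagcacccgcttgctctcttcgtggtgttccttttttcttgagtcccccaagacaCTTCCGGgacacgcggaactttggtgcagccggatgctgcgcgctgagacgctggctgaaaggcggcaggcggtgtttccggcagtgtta
Sf3b6: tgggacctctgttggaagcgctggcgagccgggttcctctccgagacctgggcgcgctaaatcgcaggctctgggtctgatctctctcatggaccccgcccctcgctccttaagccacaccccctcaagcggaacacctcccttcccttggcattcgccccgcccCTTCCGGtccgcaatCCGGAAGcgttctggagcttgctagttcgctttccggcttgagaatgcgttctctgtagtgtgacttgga
Snrpg: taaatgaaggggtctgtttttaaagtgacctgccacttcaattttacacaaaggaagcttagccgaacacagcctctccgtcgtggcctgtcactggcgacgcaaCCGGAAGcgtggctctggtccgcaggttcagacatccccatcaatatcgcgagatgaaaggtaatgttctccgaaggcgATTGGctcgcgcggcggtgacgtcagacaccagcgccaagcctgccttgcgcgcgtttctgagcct

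The windows of the families differed in the letters they held. A window was found for 44 of the 50 members, 58 windows in all, since 8 members have more than 1 annotated start (not matched were Hnrnpll, Hnrnpul2, Sf3b4, Sf3b5, Snrpb and Snrpd1). The ETS core stood in 7 of 8 SF3 windows (87.5%) and in 3 of 27 hnRNP windows (11.1%), against 6.91% of all 32851 windows and 16.0% of the windows of genes past the same detection limit. SR and Snrp windows lay between, at 6 of 13 (46.2%) and 3 of 10 (30%). The CCAAT box stood in 17 of 27 hnRNP windows (63%), which belong to 13 of 18 genes, and in 3 of 8 SF3 windows (37.5%), against 33.8% of all windows and 35.8% of those of genes past the limit. The GC box (GGGCGG or CCGCCC) was in 12 of 13 SR windows (92.3%), against 32.7% of all windows and 58% of those of genes past the limit. It was also in 20 of 27 hnRNP windows (74.1%), and in 50% of both SF3 and Snrp windows. The E-box (CACGTG) and the TATA box (TATAAA or TTTATA) were each in 8.62% of member windows. Genes past the limit had them in 8.78% and 6.26% of windows. These are matches of letters, several windows share a gene, and no binding was measured. Hnrnpa1 and Hnrnpl, each with 4 CCAAT boxes, lay near opposite ends of the hnRNP gate differences given below.

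Splicing factor transcripts were lower in CD11b+ GMP-P cells than in GMP cells in all 4 families. The mean of log2(TPM + 1) over the 50 members, called the score below, was 6.01 ± 0.72 in GMP, with a lowest cell of 3.72, a median of 6.28 and a highest of 6.96. In CD11b+ GMP-P it was 4.35 ± 1.55, with a lowest cell of 0.78, a median of 4.83 and a highest of 6.82. The gates overlapped, and the CD11b+ GMP-P cells were spread over a wider range. All 50 members had a lower mean log2 value in CD11b+ GMP-P. By mean TPM, Hnrnpll, Hnrnpul1, Hnrnpul2, Srsf4 and Srsf9 were higher there. The median difference of all 7803 genes past the limit was also below 0, at -0.74. The share of all genes below 0 was not counted.

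Of the 50 members, 39 (78%) were lower by at least 1 and 0 were higher by at least 1. Of all 7803 genes past the same limit, 39% were lower and 2.72% higher by that rule. The median difference was -1.75 over the members and -0.74 over all genes. A gene near 0 in both gates cannot meet the rule. With a mean of at least 4 over all cells, a limit chosen after the values were seen, 32 of 34 members (94.1%) and 69% of all 1471 such genes were lower, with medians of -1.90 and -1.59. That comparison sets a floor on the level and does not match the genes in level. A list of 10 housekeeping genes had a median difference of -1.20. From mean TPM in place of the mean of logs, 13 members (26%) and 30.2% of all genes were lower by at least 1, and relative to the median of all genes 25 members (50%) and 17.6% were.

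**Figure D1:**
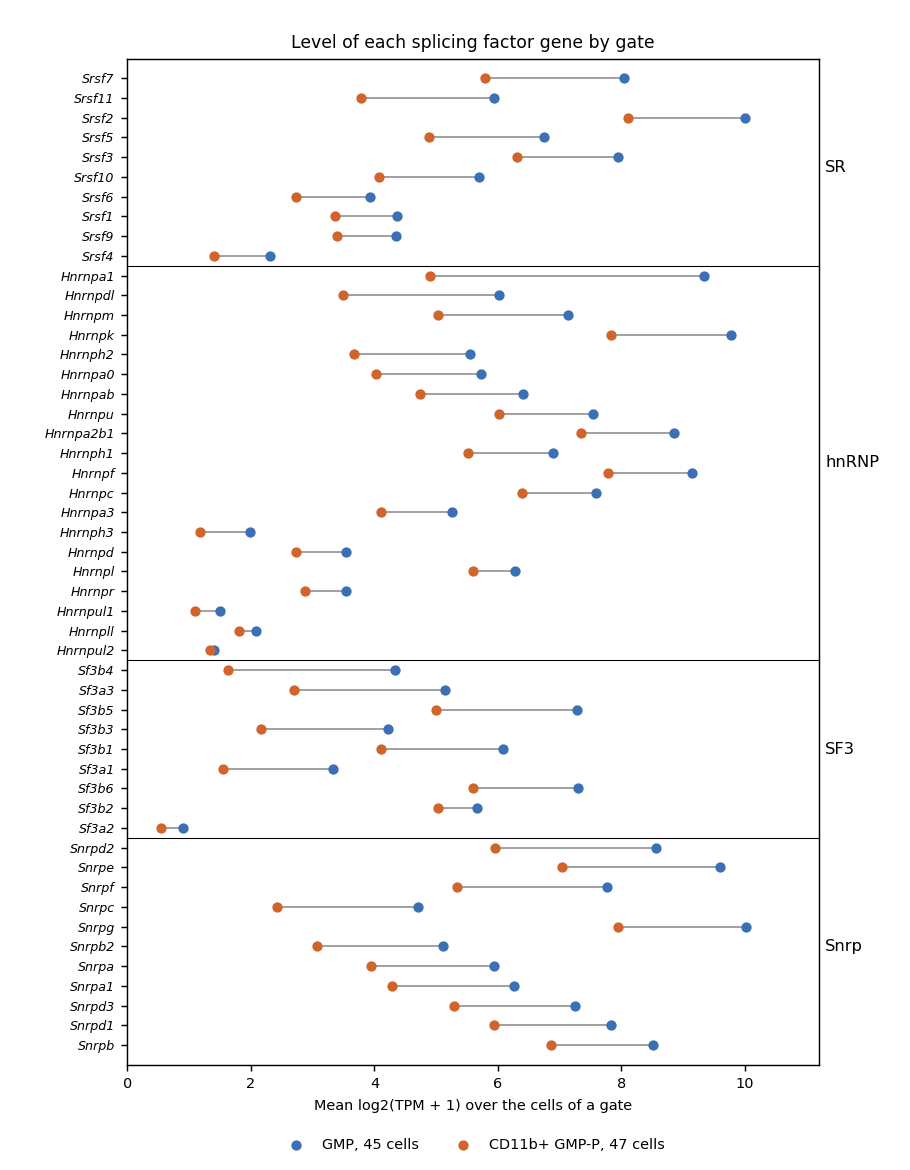
Mean log2(TPM + 1) of each of the 50 members in GMP (45 cells, blue) and CD11b+ GMP-P (47 cells, orange), grouped by family and ordered by the gate difference. Every orange point lies to the left of its blue point, and the longest line is that of Hnrnpa1, from 9.35 to 4.91. The median difference of all 7803 genes, not drawn, was also below 0, at -0.74.

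The Snrp family had the highest levels and the largest family difference. Its score was 7.41 ± 1.16 in GMP and 5.28 ± 2.25 in CD11b+ GMP-P, a difference of -2.13, and all 11 members were lower by at least 1. The 7 genes of the Sm ring, whose products assemble in equal number on each small nuclear RNA, ranged in difference from -2.60 (Snrpd2) to -1.65 (Snrpb). Their order of level hardly differed between gates. Snrpd3 was lowest and Snrpg highest in each, only Snrpb and Snrpd2 changed places, and lowest and highest were 2.77 apart in GMP and 2.66 apart in CD11b+ GMP-P.

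Snrpg, the Sm gene of the highest level here, was detected in all 45 GMP cells, from 220 to 2622 TPM with a median of 1157. Among CD11b+ GMP-P cells it was in 42 of 47, from 0 to 1773 TPM with a median of 552. The highest values of the gates lay near each other and the lowest did not, and the difference was -2.07. Snrpe ranged from 86.7 to 2032 TPM in GMP, with a median of 794, and from 0 to 1615 in CD11b+ GMP-P, with a median of 355. Its mean log2 value was 9.59 ± 0.79 in GMP and 7.04 ± 3.45 in CD11b+ GMP-P. Snrpg and Snrpe were thus among the steadiest members over GMP cells and had SDs above 3 over CD11b+ GMP-P cells.

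Snrpd2, with the largest Snrp difference, had a median of 465 TPM in GMP (0 to 2497) and 159 in CD11b+ GMP-P (0 to 1182). Snrpf had medians of 278 TPM (0 to 618) and 87.7 TPM (0 to 490), a difference of -2.42. Snrpd1 had medians of 392 TPM (0 to 1884) and 182 TPM (0 to 896), a difference of -1.89. Snrpd3 lay between these at -1.96, with medians of 281 and 82.9 TPM. Snrpb, which encodes Sm B and B′, had medians of 659 TPM (0 to 3003) and 282 TPM (0 to 1519). Reads of Snrpb could be shared with its near copy Snrpn, which was listed at 0 throughout.

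All 7 Sm genes were detected together in 88.9% of GMP cells (40 of 45, exact Clopper-Pearson 95% interval 75.9 to 96.3) and in 61.7% of CD11b+ GMP-P cells (29 of 47, interval 46.4 to 75.5). These intervals and the limits given for counts of 0 cover counting error only. Within CD11b+ GMP-P the full ring was found in 18 of 20 Gran-2 cells, 2 of 15 Myelo-2 cells and 0 of 3 Myelo-4 cells. A missing Sm transcript was thus mostly a feature of the Myelo-2 and Myelo-4 cells, which also had the fewest genes detected. Transcripts of proteins specific to single particles lay at lower levels than those of the ring. The U1 genes Snrpa and Snrpc differed by -1.99 and -2.28, and the U2 genes Snrpa1 and Snrpb2 by -1.97 and -2.04.

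The SF3 family was the lowest in level. Its score was 4.92 ± 0.88 in GMP and 3.15 ± 1.34 in CD11b+ GMP-P, a difference of -1.77, with 7 of 9 members lower by at least 1. Sf3b4, which encodes a subunit that contacts RNA near the branch point, was detected in 34 of 45 GMP cells with a median of 45 TPM (0 to 201), and in 21 of 47 CD11b+ GMP-P cells with a median of 0 (0 to 203). Its difference was -2.70, and its highest values were alike in both gates. Sf3a3, a subunit of SF3a, followed at -2.44, with medians of 90.9 TPM (0 to 1055) and 1.65 TPM (0 to 732). Sf3b5, a small SF3b subunit, was at -2.28, with medians of 227 TPM (0 to 1567) and 76.4 TPM (0 to 1260).

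Sf3b6, which encodes the subunit that touches the branch point adenosine and had the highest mean log2 level of the family, was at -1.70, with medians of 170 TPM (16.2 to 1067) and 62.1 TPM (0 to 402). Sf3b1, the large scaffold of SF3b, was in all 45 GMP cells and 41 of 47 CD11b+ GMP-P cells, with medians of 86.9 and 24.2 TPM and a difference of -1.98. Sf3b2 and Sf3a2 were the members of the family within 1. Sf3b2, the SF3b subunit that pairs with the product of Sf3b4, had medians of 90.5 TPM (0 to 635) and 45.2 TPM (0 to 442) and a difference of -0.62. Sf3a2 was near 0 in both gates, with a highest value of 56.9 TPM in GMP and 12.7 TPM in CD11b+ GMP-P, so its difference of -0.36 is of a gene at the limit of detection. The subunits of SF3b were therefore not in one order in both gates: Sf3b2 was the fourth from the top in GMP and the second in CD11b+ GMP-P. All 6 SF3b genes were seen together in 60% of GMP cells (27 of 45, interval 44.3 to 74.3) but 21.3% of CD11b+ GMP-P cells (10 of 47, interval 10.7 to 35.7). Within CD11b+ GMP-P the counts were 7 of 20 Gran-2 cells and 0 of 15 Myelo-2 cells (upper limit 20%). Median genes detected in these states were 4595 and 2936. Within GMP the counts were 16 of 24 Mono cells and 0 of 5 Multi-Lin cells (upper limit 60%), with medians of 5623.5 and 3634 genes. The part of detection in these counts was not tested.

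The SR family had a score of 5.94 ± 0.94 in GMP and 4.38 ± 1.70 in CD11b+ GMP-P, a difference of -1.55, with 8 of 10 members lower by at least 1. Srsf2, which binds exonic enhancers, was the member with the highest mean TPM in either gate. Its TPM ran from 6.32 to 8729 in GMP, with a median of 1116, and from 0 to 2132 in CD11b+ GMP-P, with a median of 580. The difference was -1.91. The cell at 8729 TPM was a Multi-Lin cell, and the 5 GMP Multi-Lin cells lay between 1116 and 8729.

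Srsf7 and Srsf11 had the largest SR differences. Srsf7, which takes part in export as well as splicing, had a median of 331 TPM in GMP (0 to 1082) and 185 in CD11b+ GMP-P (0 to 1021), a difference of -2.25. Srsf11, a less studied SR protein, had medians of 85.8 TPM (0 to 517) and 14.1 TPM (0 to 620), a difference of -2.17. In both genes the highest cells of the gates were alike, while the share of cells above 0 was lower in CD11b+ GMP-P, at 83% against 97.8% for Srsf7 and 74.5% against 95.6% for Srsf11. Srsf3, a small SR protein, had medians of 320 and 175 TPM and a difference of -1.63. Srsf5, Srsf10 and Srsf6 lay at -1.87, -1.62 and -1.20.

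The smallest SR differences were those of Srsf1, Srsf9 and Srsf4. Srsf1, the best known of the family, had medians of 22.4 TPM (0 to 815) and 14 TPM (0 to 517) and a difference of -1.002, at the rule of size itself. Srsf9, its close relative, was at -0.95 with medians of 31.6 and 20.2 TPM. Srsf4 was at -0.92 and was detected in 29 of 45 and 16 of 47 cells. By mean TPM, which weighs single high cells more, Srsf9 and Srsf4 were not lower: Srsf9 had 40.02 TPM in GMP and 45.7 in CD11b+ GMP-P. For Srsf4 these means were 23.6 and 25.01.

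The hnRNP family was the most mixed. Its score was 5.78 ± 0.68 in GMP and 4.37 ± 1.41 in CD11b+ GMP-P, a difference of -1.40, with 13 of 20 members lower by at least 1, and its differences ran from -4.44 to -0.06. Hnrnpa1 stood at the low end and was 18th from the lowest of all 7803 genes. Hnrnpa1 encodes an abundant protein that binds exonic silencers and opposes SRSF1 at many sites. In GMP it was above 0 in all 45 cells, from 7.08 to 2642 TPM with a median of 832, and in CD11b+ GMP-P in 33 of 47, from 0 to 1369 TPM with a median of 81.7. Mean TPM was 3.87-fold higher in GMP, at 948 against 245. Hnrnpa1 has many processed copies in mammalian genomes, so reads may have been split among them.

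Of the other A/B and D genes, Hnrnpa0, Hnrnpab, Hnrnpa2b1 and Hnrnpa3 had differences of -1.70, -1.66, -1.51 and -1.15. Hnrnpdl, a relative of the AU-rich element binding protein encoded by Hnrnpd, had medians of 74.8 TPM (2.56 to 837) and 15.5 TPM (0 to 305) and a difference of -2.51. Hnrnpd itself was at -0.81, the one gene of these 7 within 1. Hnrnpm, which binds GU-rich RNA, had medians of 238 TPM (0 to 1102) and 66.6 TPM (0 to 572) and a difference of -2.10.

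Hnrnpk and Hnrnpf had the highest levels of the family after averaging over all cells. Hnrnpk, a poly(C) binding protein, had medians of 975 TPM (12.4 to 2906) and 478 TPM (0 to 1800) and a difference of -1.95. Hnrnpf, which binds runs of G, had medians of 790 TPM (13.5 to 1748) and 442 TPM (0 to 2319) and a difference of -1.36. The gates overlapped over nearly the whole range of Hnrnpf, and its highest cell was a CD11b+ GMP-P cell. Its relatives Hnrnph1, Hnrnph2 and Hnrnph3 were at -1.38, -1.88 and -0.82. Hnrnpc, which binds U tracts, and Hnrnpu, a nuclear matrix protein, were at -1.20 and -1.51, and Hnrnpr was at -0.67.

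Hnrnpl and the low genes Hnrnpul1, Hnrnpll and Hnrnpul2 were among the members with the smallest differences, and they differ in level. Hnrnpul1, Hnrnpll and Hnrnpul2, at -0.42, -0.28 and -0.06, had medians under 1 TPM in both gates. Hnrnpl, which binds CA repeats, was well expressed and had the smallest SD of all members over GMP cells (0.70). Its TPM ran from 40.03 to 277 in GMP, with a median of 66.9, and from 12.8 to 345 in CD11b+ GMP-P, with a median of 43.9. The difference was -0.68. Hnrnpl and Hnrnpa2b1 were the members above 0 in all 92 cells, as were 2.10% of the 7803 genes. In GMP 16 members were above 0 in every cell (32% of the members, 6.83% of all genes), and in CD11b+ GMP-P only Hnrnpl and Hnrnpa2b1 were (4%, against 2.43% of all genes).

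The order of Hnrnpa1 and its paralog Hnrnpa2b1 differed between the gates, a comparison chosen after the values were seen. Hnrnpa1 was above Hnrnpa2b1, in TPM, in 71.1% of GMP cells (32 of 45, interval 55.7 to 83.6) but 31.9% of CD11b+ GMP-P cells (15 of 47, interval 19.1 to 47.1). By state it was above in 11 of the 20 Gran-2 cells in the CD11b+ GMP-P gate and in 0 of 15 Myelo-2 cells (upper limit 20%). Both values come from the same cell, so a cell's total does not enter this order. Detection does enter it: Hnrnpa1 was above 0 in 33 of 47 CD11b+ GMP-P cells and Hnrnpa2b1 in all 47. A cell with Hnrnpa1 at 0 and Hnrnpa2b1 above 0 counts as below, and the part of detection was not tested.

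The wider splicing machinery lay on the same side. Of 132 other splicing genes past the limit, from 8 lists of 141 genes, 83 (62.9%) were lower by at least 1 and 0 higher, with a median difference of -1.31. Of all 7803 genes 39% were lower and 2.72% higher, with a median of -0.74. From mean TPM the 2 medians lay closer, at -0.62 for the other splicing genes and -0.52 for all genes. The list with the lowest median, -2.11 with 7 of 10 genes lower, was that of the SMN complex and its partners, which load Sm rings onto small nuclear RNA. Clns1a, which encodes the chaperone pICln that holds Sm proteins before loading, had a mean of 5.97 ± 1.89 in GMP and 2.53 ± 2.74 in CD11b+ GMP-P, a difference of -3.44. Gemin5, at -0.75, was the highest of that list.

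Among the other lists, the Lsm ring had 6 of 8 genes lower, from Lsm7 at -2.98 to Lsm1 at -0.23. The exon junction and export list had 7 of 10, from Eif4a3, the core helicase of the exon junction complex, at -3.47 to Nxf1, an export receptor, at -0.34. The particle-specific proteins had 20 of 26, from Ppih at -2.98 to Prpf6 at -0.09, and the Prp19 and helicase list 14 of 22, from Ppie at -2.87 to Dhx38 at 0.57. Regulators of alternative splicing had 18 of 30, from Nono at -2.64 to Ptbp2 at -0.14. The branch point list had 5 of 11, from Rbm17 at -2.78 to Puf60 at -0.20, and the SR-related proteins and kinases had 6 of 15, from Tra2b at -2.62 to Clk3, a kinase of SR proteins, at 0.56. The last pair of lists lay nearest the 39% of all genes.

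The score moved with the number of genes detected. Over cells, with no test, Pearson's r between them was 0.80 in GMP (Spearman's rho 0.67, 45 cells) and 0.90 in CD11b+ GMP-P (rho 0.89, 47 cells). The members are themselves among the genes counted, and both measures share a cell's library. Within CD11b+ Gran-2 cells r was 0.86 (rho 0.71, 20 cells). Against the share of TPM taken by the neutrophil granule list, r was -0.85 in CD11b+ GMP-P (rho -0.83) and -0.02 in GMP (rho 0.20). Their part in the gate difference was not tested.

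**Figure D2:**
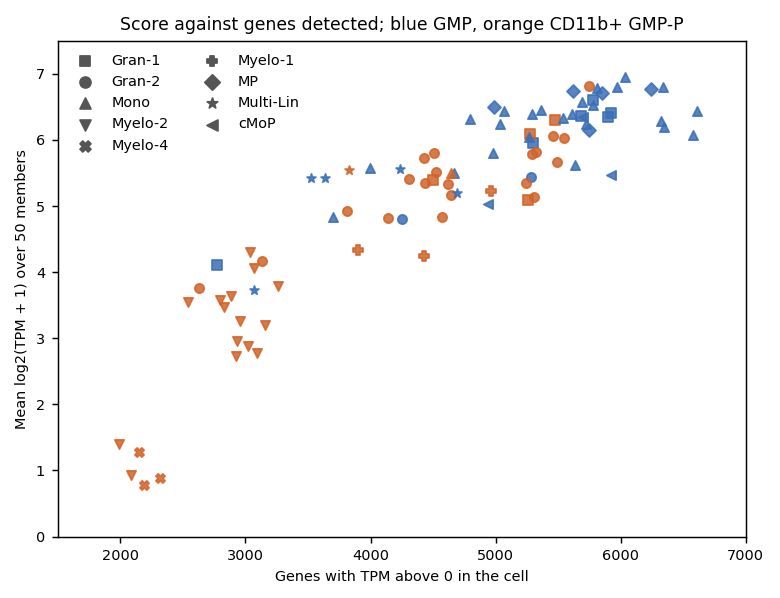
Score of each cell, the mean log2(TPM + 1) over the 50 members, against its number of genes with TPM above 0; blue is GMP and orange CD11b+ GMP-P, and the symbol gives the authors' state. Cells of both gates rise together from Myelo-4, near 2200 genes and scores from 0.78 to 1.28, to MP and Mono cells, with most CD11b+ GMP-P cells on the left.

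Cells of the gates were also paired on genes detected, within 250 genes, which gave 22 pairs with medians of 5020 genes in GMP and 5103 in CD11b+ GMP-P. In these pairs the score was 5.67 ± 0.78 in GMP and 5.37 ± 0.74 in CD11b+ GMP-P, a difference of -0.31, within the spread of cells in either gate. By family it was -0.75 for SF3, -0.38 for Snrp, -0.19 for SR and -0.12 for hnRNP, and the median of all genes was -0.08. Of the members 12 (24%) were lower and 4 (8%) higher by at least 1, against 14.2% and 11.5% of all genes. Hnrnpa1 was again the lowest, at -2.13 (9.15 ± 1.96 and 7.02 ± 3.23), followed by Snrpc at -1.93 and by Sf3b4 and Sf3b5, each at -1.42. Snrpa, Hnrnph1, Hnrnpll and Srsf1 were higher in the paired CD11b+ GMP-P cells, by 1.46, 1.18, 1.12 and 1.03. Pairing took 13 Gran-2 cells but only 2 of the 15 Myelo-2 cells, so it compares a different mix of states.

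By state, the score of GMP cells was highest in MP, at 6.57 ± 0.26 (5 cells), then 6.23 ± 0.48 in Mono (24), 5.96 ± 0.93 in Gran-1 (6), 5.62 ± 0.67 in cMoP (3), 5.12 ± 0.45 in Gran-2 (2) and 5.07 ± 0.76 in Multi-Lin (5). Neighbours in this order overlapped, and 2 places in it rested on 1 cell. Without cell 25 the Gran-1 mean was 6.33 ± 0.24 (5 cells), above Mono, and without cell 23 the Multi-Lin mean was 5.40 ± 0.15 (4 cells), above Gran-2. In CD11b+ GMP-P it was 5.72 ± 0.57 in Gran-1 (4), 5.37 ± 0.68 in Gran-2 (20), 4.6 ± 0.55 in Myelo-1 (3), 3.10 ± 0.91 in Myelo-2 (15) and 0.98 ± 0.27 in Myelo-4 (3), with 5.54 and 5.5 in the single Multi-Lin and Mono cells. The 3 Myelo-4 cells, from 0.78 to 1.28, overlapped only with the lowest of the Myelo-2 cells, which ran from 0.93 to 4.31. Myelo-2 and Gran-2 overlapped between 3.75 and 4.31. Median genes detected were 4595 in Gran-2, 2936 in Myelo-2 and 2192 in Myelo-4.

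Gran-1 was found in both gates. Its score was 5.96 in the 6 GMP cells and 5.72 in the 4 CD11b+ GMP-P cells, a difference of -0.24, against a median of 0.05 for all genes. Per family it was -0.85 for SF3, -0.38 for hnRNP, 0.0012 for Snrp and 0.32 for SR. These values rested on cell 25 of GMP, which had the fewest genes detected of that gate. Without it the difference was -0.61 over all members, against a median of -0.09 for all genes, with -1.19 for SF3, -0.62 for hnRNP, -0.43 for Snrp and -0.27 for SR. Without the Myelo cells the gate difference of the score was -0.58 (26 CD11b+ GMP-P cells), and 9 members (18%) were lower by at least 1 and 0 higher, against 18.1% and 5.07% of all genes. That share is the one of the whole table. The lowest members were then Sf3b4 at -2.15, Hnrnpdl at -1.79, Hnrnpa1 at -1.70 and Snrpc at -1.62, and the SF3 family, at -0.90, had the largest family difference.

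**Figure D3:**
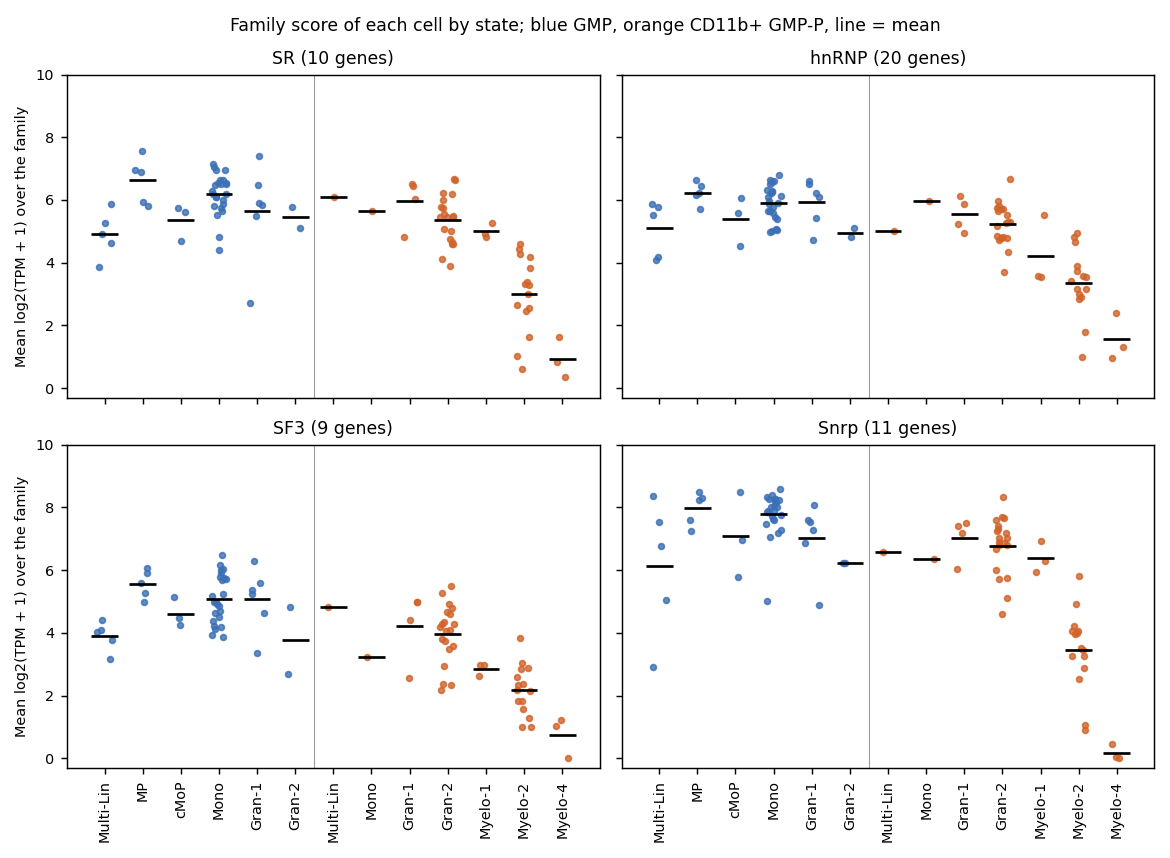
Score of each cell for the 4 families by gate and state, with black lines at the means; blue points are GMP cells and orange points CD11b+ GMP-P cells, and the vertical axis is the mean log2(TPM + 1) over the genes of the family. The means of Myelo-2 and Myelo-4 lie lowest in every family, though single Myelo-2 cells overlap cells of other states. The drop is steepest in Snrp, where Gran-2 of CD11b+ GMP-P has a mean of 6.78 and Myelo-4 of 0.16.

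Within CD11b+ GMP-P, Myelo-2 cells had a lower score than Gran-2 cells, by a difference of -2.27. The difference was -3.33 for Snrp (6.78 ± 0.92 to 3.46 ± 1.28), -2.36 for SR, -1.87 for hnRNP and -1.79 for SF3. Of the members 38 (76%) were lower and 0 higher by at least 1, against 51.2% and 2.62% of the 7334 genes compared, whose median was -1.04. From mean TPM in place of the mean of logs, the difference of the score was -1.08, against a median of -1.12 for all genes. How the states were assigned is not known here, and they may rest on these same values, so this is a description and no test.

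Hnrnpa1, Snrpa, Snrpf and Srsf7 had the largest state differences. Hnrnpa1 ran from 0 to 1369 TPM in Gran-2 cells, with a median of 198, and from 0 to 174 in Myelo-2, with a median of 0, a difference of -5.75. Snrpa, the gene of a U1 protein, was in 19 of 20 Gran-2 cells (median 115 TPM) and 4 of 15 Myelo-2 cells (median 0), a difference of -5.04. Snrpf was in every Gran-2 cell, from 5.47 to 490 TPM, and in 7 of 15 Myelo-2 cells, from 0 to 195, a difference of -4.71. Srsf7 had medians of 294 TPM (2.82 to 1021) and 8.48 TPM (0 to 323), a difference of -4.6. For each of these 4 genes the ranges of the states overlapped. The median Myelo-2 cell was at 0 for Hnrnpa1, Snrpa and Snrpf, and above 0 for Srsf7.

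Other abundant members were closer. Hnrnpl had medians of 49.6 TPM in Gran-2 (13.6 to 136) and 35.5 TPM in Myelo-2 (12.8 to 345), a difference of -0.40. Hnrnpa2b1 had medians of 266 TPM (33.7 to 583) and 160 TPM (0.51 to 608), a difference of -1.71. Hnrnpul1 was the member above 0 at 0.32, from means of 0.97 and 1.29, low in both states.

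In the 3 Myelo-4 cells 24 members (48%) were at 0 in every cell, as were 53.7% of the 7803 genes, and the Snrp score was 0.16. Hnrnpa2b1, Hnrnpl and Srsf5 were above 0 in all 3 (6% of the members, 9.33% of all genes). Hnrnpa2b1 had 12.4, 254 and 426 TPM, and Hnrnpl had 12.9, 20.4 and 31.2. The 8 highest members took 89% of the members' TPM in Myelo-4, led by Hnrnph1 and Hnrnpa2b1, against 55.9% in Myelo-2 and 53.9% in GMP, where Srsf2 and Snrpg led. Few members thus made up nearly all of the signal in these cells, of which only 3 were measured.

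**Figure D4:**
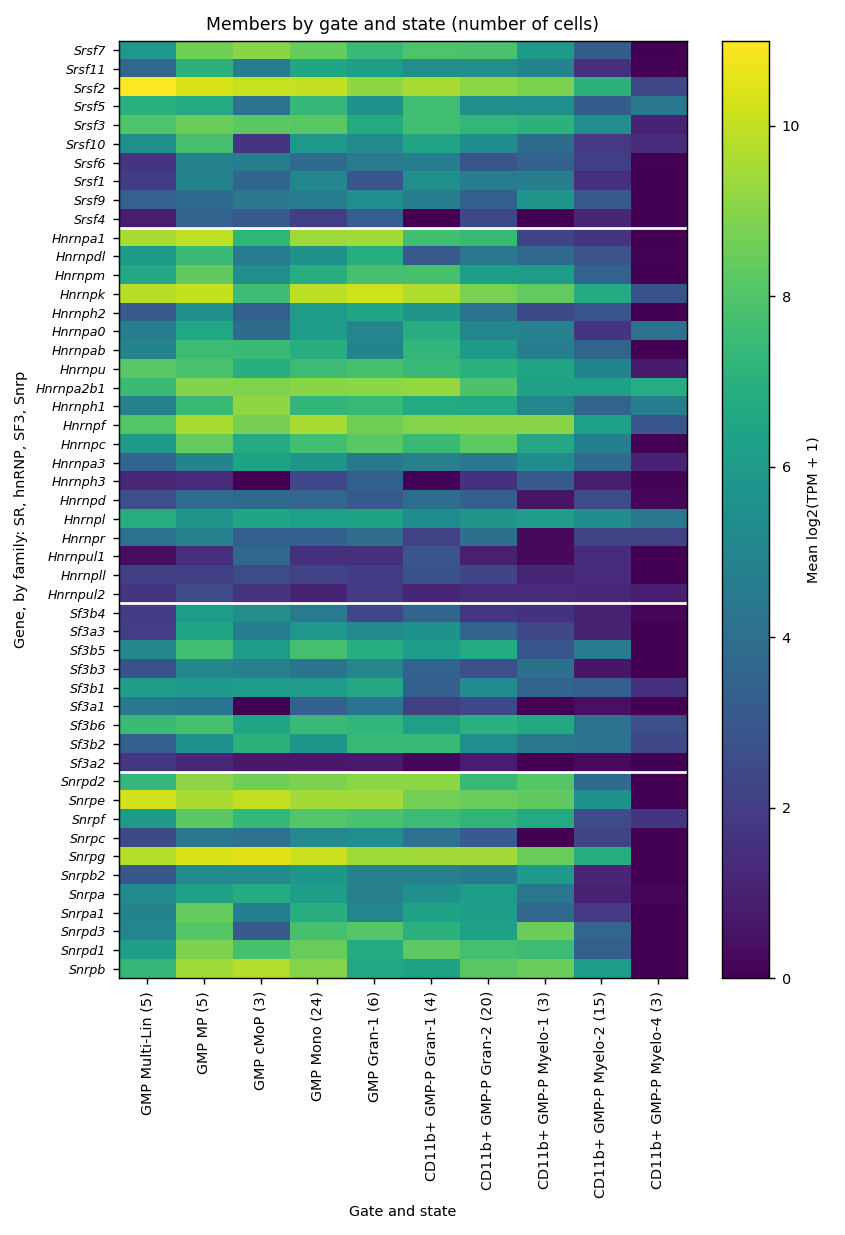
Mean log2(TPM + 1) of each member, as colour, in the gate and state groups of at least 3 cells, with the number of cells in brackets; rows are ordered by family and gate difference. In the Myelo-4 column 24 of the 50 rows are at 0. Hnrnpl and Hnrnpa2b1, detected in all 92 cells, are among the rows above 0 in every column.

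Expression of the members was also taken as a share of each cell's TPM. They made up 1.40% ± 0.23 in GMP and 0.73% ± 0.33 in CD11b+ GMP-P. By state the share was 0.93% in Gran-2, 0.45% in Myelo-2 and 0.11% in Myelo-4. Granule transcripts took 57.4% of TPM in the median Myelo-2 cell, which lowers every other share. Of the TPM outside the granule list, the members took 1.20% ± 0.16 in Gran-2 and 1.02% ± 0.32 in Myelo-2, which overlap widely, and 0.26% in Myelo-4. By gate it was 1.49% and 1.08%. On this measure Myelo-2 and Gran-2 differed by less than the SD over Myelo-2 cells. The number of members detected differed more, as did the number of all genes detected. The medians were 44.5 of 50 members and 4595 genes in Gran-2, 32 and 2936 in Myelo-2, and 14 and 2192 in Myelo-4. The score also kept a gap. With the granule list taken out and TPM rescaled, Myelo-2 minus Gran-2 was -1.93, against a median of -0.94 for all genes.

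**Figure D5:**
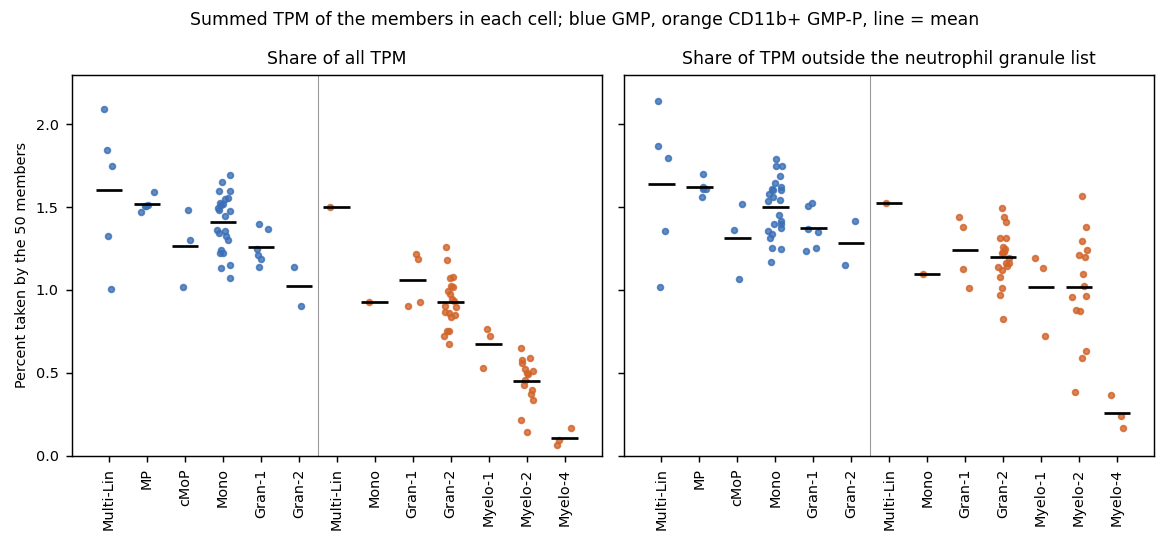
Summed TPM of the 50 members in each cell as a percent of all TPM (left) and of TPM outside the neutrophil granule list (right), by gate and state, with lines at the means; blue is GMP and orange CD11b+ GMP-P. The gap between Gran-2 and Myelo-2 is 0.93% against 0.45% on the left and 1.20% against 1.02% on the right.

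Within GMP, the 24 Mono and 6 Gran-1 cells were closer to each other, with scores of 6.23 ± 0.48 and 5.96 ± 0.93. Of the members 11 (22%) were at least 1 higher and 4 (8%) lower in Mono, against 21% and 13.8% of 8601 genes, so the shares are those of the table or below. The direction of the score rested on cell 25 and on the mean: the difference was 0.27 with it, -0.10 without it and -0.025 by the median over cells. Without cell 25, 4 members (8%) were higher and 9 (18%) lower, against 15.8% and 20.2% of all genes. Snrpb had the largest difference, 2.41, with medians of 730 TPM in Mono (0 to 1485) and 157 in Gran-1 (0 to 843). Srsf1 was at 2.23 (medians 62 and 9.69 TPM), Sf3b4 at 2.23 (52.4 and 1.86) and Hnrnpab at 1.98 (166 and 46). Sf3b2 was the lowest, at -1.58, from 76.1 TPM (0.18 to 420) in Mono and 245 (14.9 to 635) in Gran-1. Without cell 25 these 5 differences were 1.09, 2.34, 1.76, 1.28 and -1.20. Ranges overlapped for each of these genes, and no isoform or splicing outcome can be read from gene-level values.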

How the data were processed

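Each sample is 1 cell, 45 of the GMP gate and 47 of the CD11b+ GMP-P gate by the labels; no cell was left out and no doublet caller was run. The deposited table holds log2(TPM + 1) values, made by the authors with Bowtie2 and RSEM on mm9, per the submitters' processing notes; not given in the sources used here were their versions and settings, any removal of doublets, and how the authors' deposited state names were assigned.

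Values were taken back to TPM with pandas 2.3.3 in Python 3.11.15. Genes detected in 25% or more of the cells of either gate were compared by the mean of log2(TPM + 1), CD11b+ GMP-P minus GMP, which understates differences of low genes. With 1 sample a gate there was no test, and cells are not replicates. Shares carry exact 95% intervals from scipy 1.17.1, and a count of 0 a limit of 3 cells of the total.

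The genes named per family were the 3 lowest and 3 highest differences and the 2 highest levels, with the 4 largest differences per pair of states and both ends of each other splicing list. Members and lists were chosen with earlier results of these data known. Genes whose symbols start with Snrnp stand in the other lists. RSEM divides reads among similar sequences, so genes with close copies are uncertain; free RNA could not be measured. Alternatives were pseudocounts of 0.1 and 10, mean TPM, medians over cells, no detection limit or one of 50%, pairing on genes detected, leaving out Myelo cells, removing granule genes from the total, and centring on the median of all genes.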

Additional observations from a re-analysis of the deposited data

Results flagged for a closer look

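Of 20 pairings of a group of cells with a score (4 groups, each with 5 scores that share genes), 2 had 1 cell that stood apart, both for the score over the 50 members. Chance gives about 1 in 20 of independent sets. Among the 5 GMP Multi-Lin cells, cell 23 had a score of 3.72, with the nearest cell at 5.19, a gap of 0.801 of the range against a critical value of 0.71. It had 3069 genes detected. Among the 6 GMP Gran-1 cells, cell 25 had a score of 4.11, with the nearest at 5.95, a gap of 0.738 of the range against a critical value of 0.625. It had 2775 genes detected, the fewest of the GMP gate. Without cell 23 the Multi-Lin mean was 5.40, and without cell 25 the Gran-1 mean was 6.33 and the difference of CD11b+ GMP-P from GMP within Gran-1 was -0.61. Both were left out after the data were seen.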

How the results depend on the processing

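No paired analysis was possible because the labels give no number or animal that both gates share; pairing below is on genes detected only. With the Myelo cells left out, the gate difference of the score was -0.58 over all members, -0.44 for SR, -0.48 for hnRNP, -0.90 for SF3 and -0.61 for Snrp, the other splicing genes had a median of -0.49, and 9 members were at least 1 lower. In cells paired on genes detected these were -0.31, -0.19, -0.12, -0.75, -0.38 and -0.21, with 12 members lower and 4 higher, and Myelo-2 minus Gran-2 was -0.58 over only 2 pairs. With a pseudocount of 10 the difference was -0.97 for SR, -0.92 for hnRNP and -0.62 for the other splicing genes. From mean TPM it was -0.75 over all members, -0.57 for SR, -0.57 for hnRNP, -1.12 for SF3 and -0.95 for Snrp. For the other splicing genes it was -0.62, and 13 members were lower. Relative to the median of all genes it was -0.92 over all members, -0.82 for SR, -0.67 for hnRNP and -0.57 for the other splicing genes, with 25 lower. Of the 50 members, 18 were above 0 in paired cells and 8 without the Myelo cells, where the highest was Hnrnpc at 0.45. The medians of all genes in these settings were -0.08 and -0.32, and the share of all genes above 0 was not counted. Of the genes picked by the rule for names that were at least 1 lower over all cells, those above 0 were, in paired cells, Hnrnpf 0.75, Snrpa 1.46, Snrpb 0.63, Snrpd1 0.73, Srsf1 1.03, Srsf3 0.035, and without the Myelo cells Snrpa 0.10, Snrpd1 0.11, Srsf1 0.30. Without cell 25, Mono minus Gran-1 in GMP was -0.10. The cause was not tested. A pseudocount of 0.1, medians over cells, either other detection limit and removal of the granule genes changed neither the direction nor the side of 1 of any family's gate difference. Depth is unknown, so a value of 0 may be a missed transcript, most of all in Myelo-2 and Myelo-4.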
